A study of Mus musculus with 6 samples.

Results

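The genes described here encode the contractile apparatus of skeletal muscle and its supply of calcium and energy, measured in sorted basal cells of embryonic skin. A row of the count table was taken as a member when its Ensembl identifier carried 1 of 45 listed symbols, which gave 45 of the 55536 genes listed. They comprised 11 thin filament genes, 9 thick filament genes, 12 genes of the Z-disc and its attachments, 7 of the triad and calcium handling, 4 of energy metabolism and 2 acetylcholine receptor subunits of the neuromuscular synapse. Myosin heavy chains and myogenic transcription factors were left out of the members by the rule and are given only for comparison.

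Bulk RNA-seq was performed on Epcam+α6+ cells sorted from dorsal skin at E16.5, with 3 Ctrl and 3 TKO libraries. Ctrl embryos were Suv39h1 f/f, Suv39h2-/-, Setdb1 f/f and K14CreERT2-. TKO embryos had the same alleles with K14CreERT2+. All embryos were exposed to tamoxifen, so that the loss of *Suv39h2* and the drug were common to both groups. The comparison asks which genes differ once the H3K9 methyltransferases Suv39h1 and Setdb1 are also deleted in the epidermis. K14-CreERT2 is driven by the keratin 14 promoter. Cells that never had this promoter active under tamoxifen, and do not descend from cells that had, keep the floxed alleles. The litters behind these libraries are described by the study as mosaic. The column names give Ctrl replicate 1 and TKO replicate 2 as female and the other libraries as male. The labels do not say whether a library was 1 embryo or a pool, and p-values measure the spread between these libraries only.

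In striated muscle, thin filaments of actin, troponin and nebulin slide along thick filaments of myosin, which titin tethers to the Z-disc. Calcium for contraction leaves the sarcoplasmic reticulum at the triad, where the voltage sensor of the membrane meets the ryanodine receptor. Keratinocytes build their cytoskeleton from keratins and non-muscle actin and myosin, and most sarcomere genes are little expressed in epidermis.

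Total counts ranged from 102159175 in Ctrl replicate 1 to 136515436 in Ctrl replicate 2, with 104422632 in Ctrl replicate 3 and 116308383, 108957256 and 118413082 in TKO replicates 1 to 3. Levels are given as CPM, counts scaled to a TMM-normalized library size of 1000000. The smallest level treated as detected, 3 counts, corresponded to between 0.0232 and 0.0303 CPM, and it covers counting error only. The sorted cells carried their defining markers, with the basal keratin *Krt5* at 12320, 12050 and 8179 CPM in Ctrl and 6994, 8037 and 9022 CPM in TKO replicates 1 to 3. Of the targeted genes, *Setdb1* stood at 126, 118 and 121 CPM in Ctrl and at 95.3, 62.3 and 74.9 CPM in TKO. All TKO libraries were below all Ctrl libraries (log2 fold change of -0.65, standard error or SE 0.16, adjusted p-value of 0.286 by edgeR and 0.0449 by DESeq2). *Suv39h1* and *Suv39h2* had log2 fold changes of -0.10 and 0.11 with overlapping groups. These counts cover whole genes and not the floxed exons, so they do not measure recombination.

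Most skeletal muscle genes were present at low levels in both groups, and the group mean was higher in TKO for 36 of the 45 members and lower for 9. The summed level of the members was 72.8, 65.4 and 74.3 CPM in Ctrl replicates 1 to 3 and 132, 130 and 105 CPM in TKO replicates 1 to 3. *Mybpc1*, the slow-type myosin binding protein C, supplied the largest part of each sum. Without it the sums were 27.4, 30.2 and 27.2 CPM in Ctrl and 54.7, 63.2 and 63.0 CPM in TKO. Without *Ttn* as well they were 26.1, 22.7 and 23.3 CPM against 28.6, 41.2 and 42.0 CPM. In each of these sums all TKO libraries lay above all Ctrl libraries, and *Ttn* and *Mybpc1* supplied most of the difference in TKO replicate 1. In bulk samples such as these, a change in the number of cells of a type and a change in RNA per cell cannot be told apart.

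The low-count filter kept 33 members for testing, and 12 were too low. Among the tested members 5 had at least 10 counts in no more than 1 Ctrl library (*Tnnc2*, *Smyd1*, *Myoz2*, *Cacna1s* and *Casq2*). They passed through TKO for the most part and had to be higher there, so the counts and medians over tested members are descriptions and support nothing on their own. The log2 fold changes of the 33 had a median of 0.83, against 0.01 for all 20622 tested genes, and 29 were positive, against 51.9% of all tested genes. With at least 10 counts required in every library, 23 members remained with a median of 0.62. No member was called by edgeR's quasi-likelihood test at the thresholds used (an adjusted p-value below 0.05 together with a log2 fold change beyond 1 in size), where 0.131% of all tested genes were called, all 27 of them higher in TKO. Before adjustment, edgeR's p-value was under 0.05 for 10 members higher in TKO, beside 4.06% of all tested genes, and 1 lower, beside 2.02%. With a block for the replicate number these became 11, beside 4.66%, and 0, beside 2.98%, and calls over all genes went from 27 to 45 without a member among them. Without TKO replicate 3 6 of 35 tested members were higher at that level, beside 5.65% of the genes then tested, and 0 lower, beside 4.65%. Without TKO replicate 1 the same counts were 14 of 37, beside 3.79%, and 0, beside 1.88%. Every TKO library exceeded every Ctrl library for 10 tested members, beside 6.35% of all tested genes, and the reverse held for 1 tested member, beside 5.11%. With at least 10 counts in every library 7 of 23 members were so separated upwards, beside 6.24% of the genes then tested. With 1 Ctrl library left out, 11 of 38 (without replicate 1, beside 9.34%), 16 of 39 (without replicate 2, beside 10.5%) and 14 of 37 (without replicate 3, beside 11.8%) were separated. With 1 TKO library left out, 19 of 37 (without replicate 1, beside 11%), 12 of 36 (without replicate 2, beside 8.46%) and 12 of 35 (without replicate 3, beside 14.4%) were separated. DESeq2 on the same genes called *Acta1*, *Ttn* and *Actn2* higher in TKO, beside 0.936% of all tested genes.

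**Figure D1:**
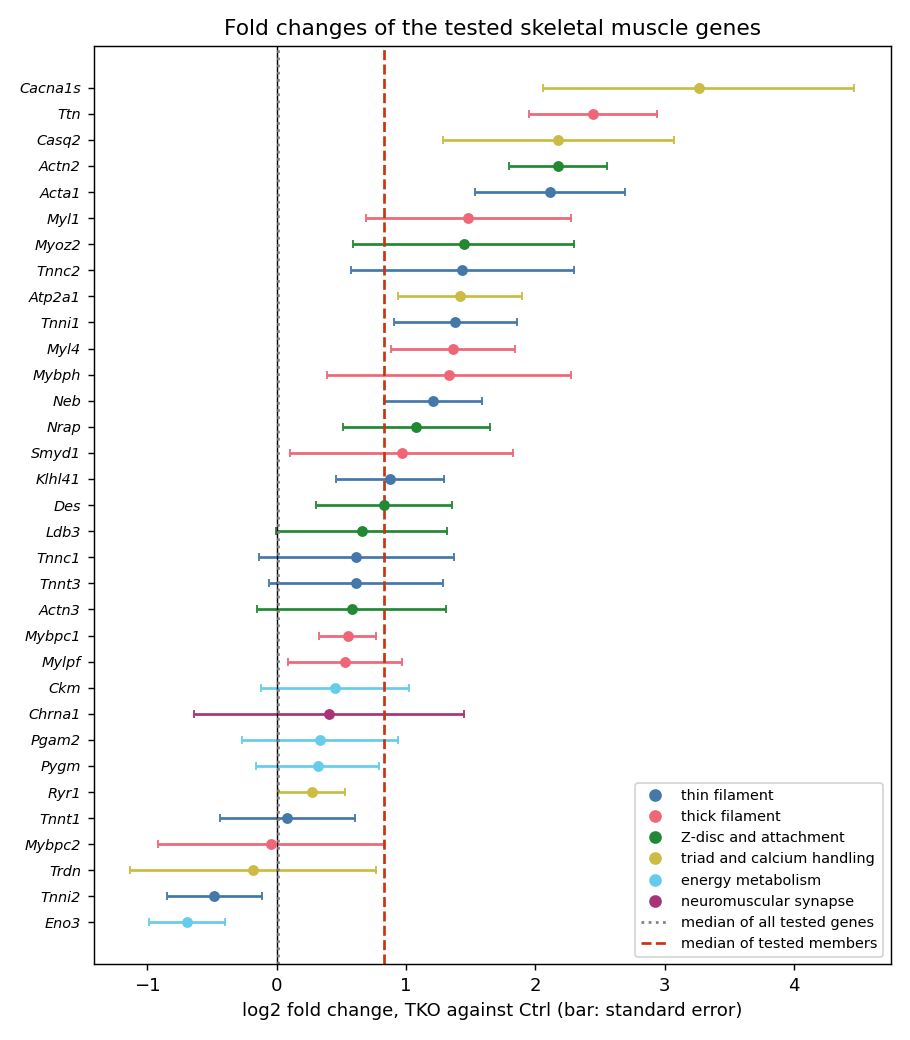
Log2 fold change of TKO against Ctrl for the 33 tested skeletal muscle genes (horizontal axis), ordered by size and coloured by structural class; bars are the standard error from edgeR with n = 3 libraries per group, the grey dotted line is the median of all tested genes (0.01) and the red dashed line that of the members (0.83). Values run from -0.69 for *Eno3* to 3.26 for *Cacna1s*, and 29 of the 33 points lie right of zero.

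*Ttn* encodes titin, the giant spring that spans from Z-disc to M-line (GRCm39 chr2:76534136-76812891, minus strand). Its level was 1.33, 7.41 and 3.90 CPM in Ctrl replicates 1 to 3 and 26.1, 22.1 and 20.9 CPM in TKO replicates 1 to 3. The TKO libraries were alike and all above the Ctrl libraries, while the Ctrl libraries differed severalfold among themselves. The log2 fold change was 2.45 (SE 0.49), ranging from 2.03 without Ctrl replicate 1 to 3.14 without Ctrl replicate 2. The adjusted p-value was 0.181 by edgeR, 0.234 by edgeR with the replicate block and 0.0214 by DESeq2.

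*Actn2* encodes α-actinin-2, which crosslinks thin filaments at the Z-disc (chr13:12281303-12356693, minus strand). It was at 0.636, 0.728 and 0.993 CPM in Ctrl and at 2.95, 4.96 and 2.75 CPM in TKO. Each TKO library was clearly above each Ctrl library. The log2 fold change was 2.18 (SE 0.38). The adjusted p-value was 0.0879 by edgeR, 0.0862 by edgeR with the replicate block and 1.41e-06 by DESeq2. *Actn2* shares no exon bases with another annotated gene.

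*Acta1* encodes skeletal α-actin, the backbone of the thin filament (chr8:124618501-124623661, minus strand). It was at 0.353, 0.573 and 0.965 CPM in Ctrl and at 0.960, 3.28 and 3.97 CPM in TKO. TKO replicates 2 and 3 were above all Ctrl libraries, and TKO replicate 1 lay at the level of Ctrl replicate 3, so the groups overlapped. Without the block the log2 fold change was 2.12 (SE 0.58), with an adjusted p-value of 0.360 by edgeR and 0.0122 by DESeq2. With the replicate block, edgeR gave 2.01 and an adjusted p-value of 0.117. Reads of *Acta1* could be shared with *Actc1* and *Acta2*, which encode closely related actins, so its count may be uncertain. Such sharing of reads was not tested.

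The 250 bases before the RefSeq start of these 3 genes are shown because they were the members called by DESeq2. They were read from RefSeq on GRCm38.p6, at chr2:76982548-76982797 for *Ttn*, chr8:123894776-123895025 for *Acta1* and chr13:12340733-12340982 for *Actn2*, all on the minus strand. Capitals mark E-boxes, the CANNTG core bound by basic helix-loop-helix factors such as MyoD, and matches to the MEF2 and CArG (serum response factor) consensus, searched on both strands.
Ttn: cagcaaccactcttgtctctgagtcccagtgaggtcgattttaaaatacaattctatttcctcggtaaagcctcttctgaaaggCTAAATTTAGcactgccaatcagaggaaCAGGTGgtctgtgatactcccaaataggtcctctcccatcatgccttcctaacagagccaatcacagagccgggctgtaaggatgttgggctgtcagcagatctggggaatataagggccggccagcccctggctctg
Acta1: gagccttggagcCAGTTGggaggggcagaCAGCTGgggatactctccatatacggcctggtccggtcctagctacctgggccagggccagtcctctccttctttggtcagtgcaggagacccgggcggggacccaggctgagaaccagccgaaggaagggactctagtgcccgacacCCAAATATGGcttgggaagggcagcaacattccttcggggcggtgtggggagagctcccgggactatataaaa
Actn2: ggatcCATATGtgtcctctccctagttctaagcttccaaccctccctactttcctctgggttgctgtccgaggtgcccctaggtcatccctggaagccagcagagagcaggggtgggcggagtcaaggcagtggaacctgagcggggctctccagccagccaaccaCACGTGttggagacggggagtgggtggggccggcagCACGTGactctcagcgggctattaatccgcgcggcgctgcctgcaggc

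The *Ttn* window held 1 MEF2 match and 1 E-box, the *Acta1* window 2 E-boxes and 1 CArG match, and the *Actn2* window 3 E-boxes, and none of these matches overlapped. RefSeq promoters were found for 33 members, 35 windows in all. An E-box was present in 30 of the 35 (85.7%), against 66.2% of 32851 promoter windows of the same length. A MEF2 match was present in 4 (11.4%, against 0.508%) and a CArG match in 3 (8.57%, against 1.47%). These matches describe letters in the windows and do not show that a factor was bound.

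Among thin filament genes, 9 members were tested and 8 were positive, with a median of 0.88 on the log2 scale. Nebulin, encoded by *Neb* (chr2:52026659-52268486), runs along the thin filament and sets its length. *Neb* was at 0.737, 1.34 and 1.63 CPM in Ctrl and 2.69, 2.57 and 3.32 CPM in TKO, with a log2 fold change of 1.21 (SE 0.38; edgeR adjusted p-value of 0.513). The troponin I of slow fibres, *Tnni1* (chr1:135707172-135738727), was at 0.798, 0.441 and 0.427 CPM in Ctrl and 1.04, 1.11 and 2.20 CPM in TKO, a log2 fold change of 1.38 (SE 0.47; edgeR adjusted p-value of 0.639). *Klhl41* (chr2:69500462-69515137), a kelch protein that stabilizes nebulin, was at 0.485, 0.356 and 0.464 CPM in Ctrl and 0.756, 0.851 and 0.789 CPM in TKO, a log2 fold change of 0.88 (SE 0.42; edgeR adjusted p-value of 0.870). For these 3 genes every TKO library exceeded every Ctrl library, beside 6.35% of all tested genes. The TKO libraries lay close together for *Neb* and *Klhl41*, while TKO replicate 3 was highest for *Tnni1*.

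The fast troponin I went the other way in sign. *Tnni2*, the thin filament member with the most counts per kilobase of exon, was at 2.71, 1.84 and 1.38 CPM in Ctrl and 1.29, 1.62 and 1.33 CPM in TKO. The groups overlapped, with a log2 fold change of -0.48 (SE 0.37; edgeR adjusted p-value of 0.9998). The troponins T and C (*Tnnt1*, *Tnnt3*, *Tnnc1* and *Tnnc2*), which hold the complex on tropomyosin and bind calcium, had log2 fold changes from 0.08 to 1.44, and their groups overlapped. The leiomodins nucleate actin filaments, and *Lmod3* was counted 1, 0 and 3 times in Ctrl replicates 1 to 3 and 4, 17 and 83 times in TKO replicates 1 to 3. It was too low to be tested, all Ctrl libraries being at or under 3 counts, and the mean level in TKO was at least 10.7-fold higher than the floor of 3 counts per library. TKO replicate 3 supplied 83 of the 104 counts in TKO, and without it the mean was 3.47 times the floor.

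Thick filament genes gave a median of 1.15 over 8 tested members. *Mybpc1* (chr10:88354062-88441175) had by far the most counts per kilobase of all members, with 5.53 CPM per kilobase in Ctrl and 8.09 in TKO. Its level was 45.3, 35.3 and 47.0 CPM in Ctrl and 77.7, 67.0 and 42.2 CPM in TKO. TKO replicates 1 and 2 exceeded all Ctrl libraries and TKO replicate 3 lay among them, and the log2 fold change was 0.55 (SE 0.22; edgeR adjusted p-value of 0.744). The embryonic and atrial essential light chain *Myl4* (chr11:104440903-104486603) was at 0.242, 0.325 and 0.213 CPM in Ctrl and at 0.535, 0.715 and 0.765 CPM in TKO. The groups did not overlap, with a log2 fold change of 1.36 (SE 0.48; edgeR adjusted p-value of 0.658). The other tested members of the class (*Mylpf*, *Myl1*, *Mybpc2*, *Mybph* and *Smyd1*) ranged from -0.04 to 1.48, with overlapping groups.

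At the Z-disc all 6 tested members were positive, with a median of 0.95. Besides *Actn2*, only *Myoz2* of these 6 had every TKO library above every Ctrl library, beside 6.35% of all tested genes. *Myoz2* (chr3:122797610-122828664), which encodes the calcineurin-binding protein calsarcin-1, was at 0.0909, 0.0387 and 0.102 CPM in Ctrl and 0.128, 0.226 and 0.280 CPM in TKO, a log2 fold change of 1.45 (SE 0.85; edgeR adjusted p-value of 0.986). These levels correspond to between 5 and 34 counts, and *Myoz2* passed the low-count filter mainly through TKO. The others were *Actn3*, *Nrap*, *Ldb3* and the intermediate filament gene *Des*, with log2 fold changes from 0.58 to 1.08 and overlapping groups. The other 6 of the 12 were too low to be tested, and most of them had lower means in TKO. *Myot*, which encodes the actin-binding protein myotilin, was counted 1, 3 and 6 times in Ctrl and 0, 1 and 0 times in TKO. *Myoz3*, a relative of *Myoz2*, was counted 24, 4 and 21 times in Ctrl and 7, 7 and 0 times in TKO. *Tcap*, which caps titin at the Z-disc, was counted 13, 0 and 0 times in Ctrl and 1, 0 and 0 times in TKO. The actin-binding *Xirp2* was counted 6, 4 and 17 times in Ctrl and 0, 14 and 1 times in TKO, whereas *Xirp1* had a higher mean in TKO and *Myoz1* was nearly level. The sign of the tested members was thus not shared by the whole class.

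Of the triad genes 5 were tested, with a median of 1.42, and every TKO library exceeded every Ctrl library for 3 of them, beside 6.35% of all tested genes. Of these 3, *Cacna1s* and *Casq2* passed the low-count filter mainly through TKO, and the other tested members were *Atp2a1* at 1.42, *Ryr1* at 0.27 and the calsequestrin anchor gene *Trdn* at -0.18 on the log2 scale. *Cacna1s* (chr1:135980259-136047560), the pore subunit of the voltage sensor, was counted 13, 0 and 1 times in Ctrl replicates 1 to 3 and 35, 37 and 85 times in TKO. The fitted log2 fold change was 3.26 (SE 1.20; edgeR adjusted p-value of 0.699), and with so few Ctrl counts it varied from 2.65 without Ctrl replicate 2 to 6.37 without Ctrl replicate 1. *Atp2a1* (chr7:126045013-126063423), the calcium pump SERCA1 of fast fibres, was at 0.364, 0.302 and 0.520 CPM in Ctrl and 0.629, 1.09 and 1.46 CPM in TKO, a log2 fold change of 1.42 (SE 0.48; edgeR adjusted p-value of 0.613). All 3 TKO libraries exceeded the Ctrl libraries for both genes, and TKO replicate 3 was highest.

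*Casq2* (chr3:101993234-102056307) encodes the calcium buffer calsequestrin of heart and slow fibres. It was at 0.222, 0.0619 and 0.0186 CPM in Ctrl and 0.272, 0.362 and 0.732 CPM in TKO, a log2 fold change of 2.18 (SE 0.89; edgeR adjusted p-value of 0.768). TKO replicate 1 was only slightly above Ctrl replicate 1, and the fold change ranged from 1.65 without TKO replicate 3 to 3.44 without Ctrl replicate 1. The fast-fibre form *Casq1* was counted 2, 0 and 0 times in Ctrl and 3, 17 and 5 times in TKO, at least 2.71-fold higher than the floor of 3 counts per library. TKO replicate 2 supplied 17 of the 25 counts, and without it the TKO mean was 1.23 times the floor. *Ryr1*, the calcium release channel and the triad gene with the most counts per kilobase, was at 7.90, 5.22 and 6.05 CPM in Ctrl and 7.96, 9.39 and 5.78 CPM in TKO. Its groups overlapped, with a log2 fold change of 0.27 (SE 0.26; edgeR adjusted p-value of 0.9998).

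All 4 genes of energy metabolism were tested, with a median of 0.33. *Eno3* (chr11:70546593-70553340), the muscle enolase of glycolysis, was at 5.42, 3.71 and 3.40 CPM in Ctrl and 2.52, 2.499 and 2.74 CPM in TKO. It was the only tested member with every TKO library below every Ctrl library, with a log2 fold change of -0.69 (SE 0.29; edgeR adjusted p-value of 0.790). *Pgam2*, the muscle phosphoglycerate mutase, was at 0.505, 0.604 and 0.742 CPM in Ctrl and 0.680, 1.42 and 0.238 CPM in TKO. Its TKO libraries lay on both sides of the Ctrl libraries, and the log2 fold change of 0.34 (SE 0.61) became -0.43 without TKO replicate 2. The creatine kinase gene *Ckm* and the glycogen phosphorylase gene *Pygm* had log2 fold changes of 0.45 (SE 0.57) and 0.32 (SE 0.47), with overlapping groups.

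Of the receptor subunits, *Chrna1* had a log2 fold change of 0.40 (SE 1.04) with overlapping groups. The fetal γ-subunit gene *Chrng* was not tested, being counted 8, 7 and 9 times in Ctrl and 18, 9 and 80 times in TKO. TKO replicate 3 alone was far above the others. The remaining untested members outside the Z-disc were *Lmod2*, *Mylk2* and *Cav3*, whose groups overlapped. Over all 12 untested members, the group mean was higher in TKO for 7 and lower for 5.

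**Figure D2:**
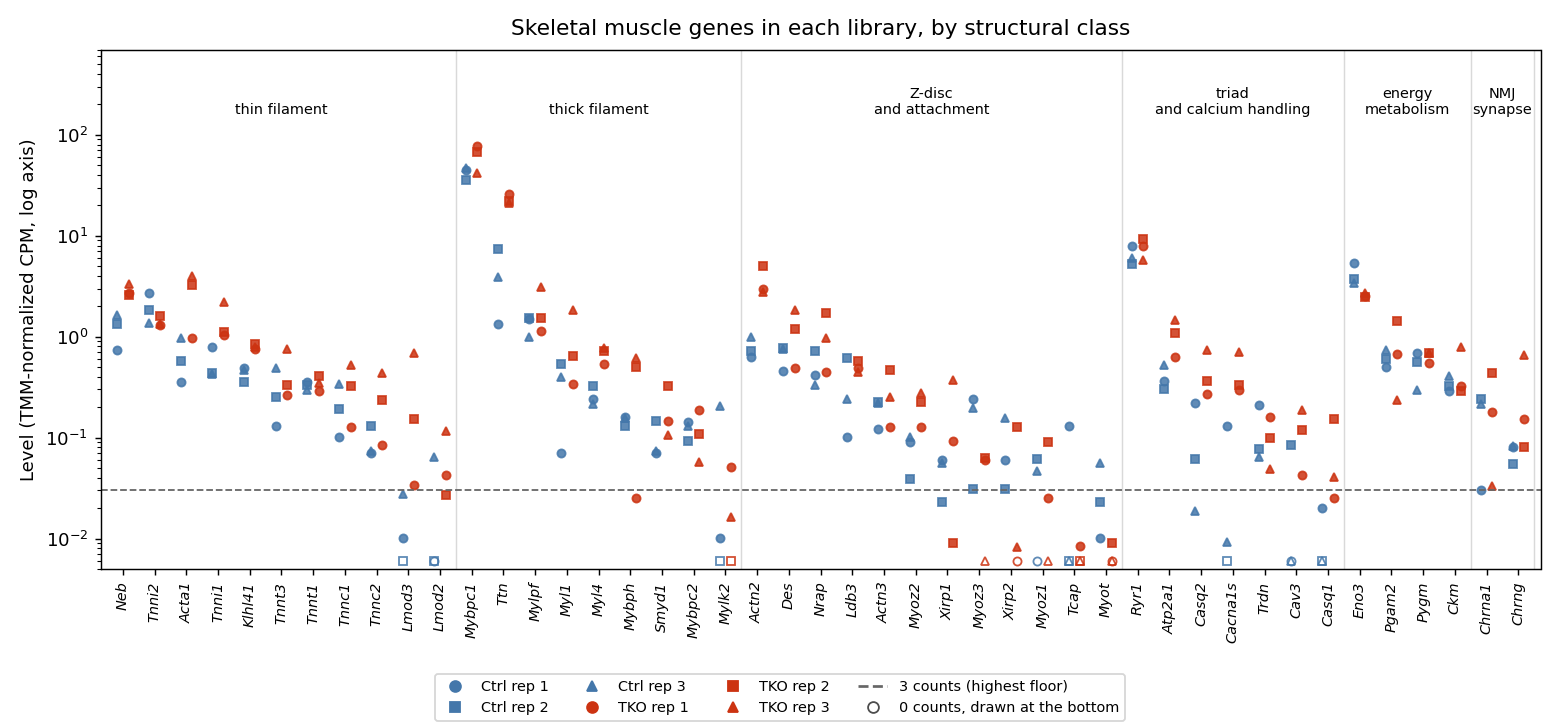
Level of each of the 45 skeletal muscle genes in each library (TMM-normalized CPM, log axis), by structural class, with Ctrl in blue, TKO in red, a symbol per replicate, open symbols for 0 counts and a dashed line at the highest floor of 3 counts (0.0303 CPM). *Mybpc1* stands highest, between 35.3 and 77.7 CPM, and the 3 TKO points of *Ttn* lie between 20.9 and 26.1 CPM, above its Ctrl points.

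The TKO libraries differed from each other in which members were high. TKO replicate 1 was above every Ctrl library for 13 of the 33 tested members, beside 25% of all tested genes. TKO replicate 2 was above for 25 (beside 26.9%), and TKO replicate 3 for 22 (beside 29.2%). Of the 33 members 17 had their highest level in TKO replicate 3, 9 in TKO replicate 2, 3 in TKO replicate 1 and 4 in a Ctrl library.

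*Ttn*, *Actn2*, *Neb*, *Klhl41* and *Myl4* were high in all TKO libraries. Others, chosen after their values were seen, were high in TKO replicate 3, or in TKO replicates 2 and 3, but not in TKO replicate 1. *Mylpf*, the fast regulatory light chain, was at 1.48, 1.53 and 1.002 CPM in Ctrl and 1.14, 1.54 and 3.12 CPM in TKO replicates 1 to 3. *Myl1*, the fast essential light chain, was at 0.0707, 0.534 and 0.399 CPM in Ctrl and 0.340, 0.643 and 1.84 CPM in TKO. *Mybph*, a relative of myosin binding protein C, was counted 16, 17 and 17 times in Ctrl and 3, 55 and 75 times in TKO. *Mylpf* and *Myl1* were highest in TKO replicate 3, *Mybph* was high in TKO replicates 2 and 3, and TKO replicate 1 lay within or below the Ctrl range for all 3. Against the Ctrl library of the same replicate number, *Myl1* was higher in TKO each time, whereas *Mylpf* and *Mybph* were lower in TKO replicate 1.

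**Figure D3:**
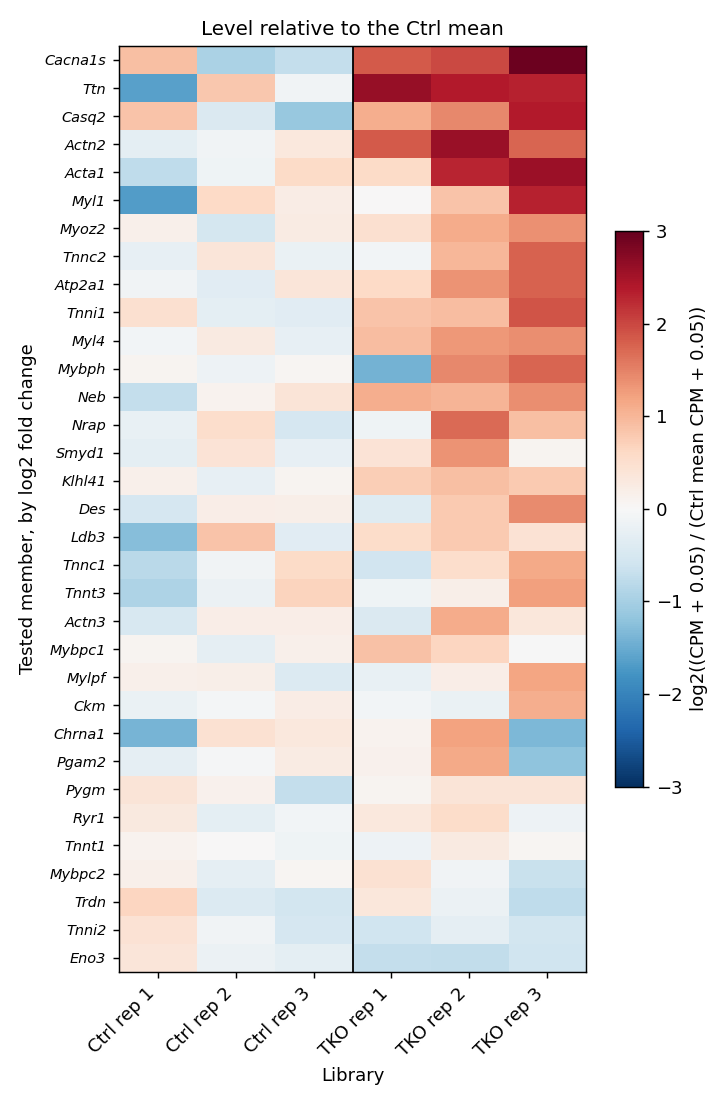
Heat map of the 33 tested skeletal muscle genes (rows, ordered by log2 fold change) in the 6 libraries (columns), coloured by log2 of the level over the Ctrl mean after adding 0.05 CPM to both, with the scale ending at 3 in either direction. The upper rows are red in all TKO columns for *Ttn*, *Actn2* and *Cacna1s*, whereas *Mybph* is blue in TKO replicate 1, and the median over the rows is 0.32, 0.93 and 1.13 in TKO replicates 1 to 3.

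The summed level of sarcomeric myosin heavy chains, the motors of the thick filament, was 1.06, 1.58 and 1.39 CPM in Ctrl and 5.33, 5.06 and 5.599 CPM in TKO. Of 8 listed genes 5 were tested, and edgeR called the embryonic chain *Myh3*. It was counted 65, 98 and 54 times in Ctrl and 455, 382 and 531 times in TKO. *Myh3* rose by a log2 fold change of 2.61 (SE 0.34; edgeR adjusted p-value of 0.0211), although this p-value ranged from 0.0381 to 0.122 without 1 library in turn and passed 0.05 only without TKO replicate 3. The perinatal chain *Myh8* was at 0.0808, 0.194 and 0.241 CPM in Ctrl and 1.17, 0.860 and 0.732 CPM in TKO, a log2 fold change of 2.41 (SE 0.55; adjusted p-value of 0.217 by edgeR and 0.00793 by DESeq2). Of the other tested chains, the slow *Myh7* had a log2 fold change of 2.52 (SE 1.18), the adult fast *Myh1* of 0.19 (SE 0.99) and the extraocular *Myh13* of -1.20 (SE 1.22). *Myh7* was counted 0, 8 and 4 times in Ctrl and 18, 39 and 11 times in TKO, so it passed the low-count filter through TKO. The 3 untested chains had lower means in TKO, the adult fast *Myh4* being counted 4, 9 and 11 times in Ctrl and 1, 0 and 0 times in TKO, *Myh2* 12, 0 and 9 against 6, 5 and 0 times and the cardiac *Myh6* 7, 1 and 9 against 5, 2 and 0 times.

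Of 55 other skeletal muscle genes, from the M-band, calcium handling, oxidative metabolism and the synapse, 42 were tested and 31 were positive, with a median of 0.32. EdgeR called 0 of these 42, gave 3 higher and 0 lower at an unadjusted p-value under 0.05 (4.06% and 2.02% of all tested genes), and 6 had every TKO library above every Ctrl library (6.35% of all tested genes). DESeq2 called 1 of the 42 higher, beside 0.936% of all tested genes. It was the junctophilin gene *Jph2*, whose product ties the surface membrane to the sarcoplasmic reticulum. *Jph2* was at 0.0606, 0.224 and 0.121 CPM in Ctrl and 0.442, 1.93 and 0.913 CPM in TKO, a log2 fold change of 2.99 (SE 0.70; adjusted p-value of 0.228 by edgeR and 0.00478 by DESeq2). It ranged from 2.30 without TKO replicate 2 to 3.57 without Ctrl replicate 2. The other genes of the 3 were *Mb*, the oxygen store myoglobin (2.13, SE 0.69), and *Trim55*, a titin-associated ubiquitin ligase (2.11, SE 0.90). *Trim55* was counted 5, 9 and 5 times in Ctrl and 15, 16 and 56 times in TKO. It passed the low-count filter through TKO and had to be higher there, so the list's counts support nothing on their own. At an unadjusted edgeR p-value under 0.05, 1 of 26 was higher with at least 10 counts in every library and 1 of 45 without TKO replicate 2. The shares over all genes were not computed for these fits, and the share in the main fit was 4.06%. Without TKO replicate 1 the count was 6 of 45, beside 3.79% of the genes then tested. EdgeR without the filter called 2 of the 55, beside 235 of all 39690 genes then tested. The summed level of the 55 was 131, 160 and 162 CPM in Ctrl and 158, 173 and 163 CPM in TKO, with overlapping groups, and the actin-severing *Cfl2*, which many cells use, was its most abundant gene with a log2 fold change of 0.03 (SE 0.18).

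Myogenic factors, which commit cells to muscle, did not separate the groups. Their sum was 8.09, 19.1 and 13.7 CPM in Ctrl and 9.31, 20.4 and 15.8 CPM in TKO, most of it from *Mef2c*, which endothelium and other cells also use. Of the 7 tested 5 were positive, with a median log2 fold change of 0.42. None was called or had an unadjusted edgeR p-value under 0.05, and DESeq2 called none. The differentiation factor *Myog* was counted 28, 105 and 34 times in Ctrl and 14, 159 and 202 times in TKO replicates 1 to 3. TKO replicates 2 and 3 were the highest and TKO replicate 1 the lowest of the 6 libraries, as for the fusion gene *Mymk* at 1, 16 and 11 against 0, 45 and 39 counts. *Myod1* was counted 15, 20 and 3 times in Ctrl and 16, 39 and 24 times in TKO, and the satellite cell factor *Pax7* 13, 22 and 0 times in Ctrl and 1, 43 and 9 times in TKO. Muscle-lineage transcripts were thus counted in both groups, and the part of muscle cells within the sorted fraction in the members' levels was not tested.

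Marker genes of other cells varied between libraries. Heart muscle genes summed to 8.58, 5.89 and 7.33 CPM in Ctrl and 7.40, 13.5 and 12.6 CPM in TKO. By group mean *Tnnt2* was the most abundant in Ctrl and *Actc1* in TKO, and the atrial peptide gene *Nppa* was at 0 counts in every library. Of the 12 listed, *Myh6* is also among the myosin heavy chains. The 4 tested had a median log2 fold change of -0.12, with *Myl7* at -0.89 (SE 0.59), *Tnni3* at -0.36 (SE 0.53) and *Tnnt2* at 0.12 (SE 0.39). EdgeR called none of them, beside 0.131% of all tested genes, and gave 1 higher at an unadjusted p-value under 0.05, beside 4.06%. DESeq2 called 1 higher, *Actc1*, beside 0.936%. The cardiac α-actin *Actc1*, which embryonic skeletal muscle also expresses, was counted 78, 292 and 203 times in Ctrl and 224, 678 and 1095 times in TKO, a log2 fold change of 1.79 (SE 0.56; adjusted p-value of 0.525 by edgeR and 0.0372 by DESeq2). Its means, 1.64 CPM in Ctrl and 5.68 CPM in TKO, differed by slightly more than the means of the list's sums, 7.27 and 11.2 CPM. Smooth muscle and pericyte genes summed to 106, 93.4 and 117 CPM in Ctrl and 102, 113 and 153 CPM in TKO, most from *Cspg4*. *Acta2* was at 2.71, 5.08 and 9.15 CPM in Ctrl and 2.82, 4.37 and 10.4 CPM in TKO.

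Fibroblast genes, led by *Col1a1*, summed to 1719, 4335 and 3584 CPM in Ctrl and 2841, 2945 and 3267 CPM in TKO. Ctrl replicate 1 was the lowest, as it was for *Ttn* and *Acta1*. The members differed in this, since among Ctrl libraries it was the highest for *Tnni1*, *Tnni2*, *Klhl41*, *Ryr1*, *Casq2* and *Eno3*. Endothelial genes, led by *Cdh5*, summed to 28.8, 28.8 and 40.0 CPM in Ctrl and 27.6, 67.9 and 55.4 CPM in TKO. TKO replicates 2 and 3 were thus high and TKO replicate 1 low, as for *Myog* and *Mybph*. *Ttn* and *Mybpc1* were instead highest in TKO replicate 1. Immune genes, led by *Csf1r*, summed to 23.6, 34.3 and 13.9 CPM in Ctrl and 8.81, 55.4 and 17.0 CPM in TKO. All 6 endothelial genes were positive, with a median log2 fold change of 0.61, beside the members' median of 0.83. The median was -0.16 over 10 fibroblast genes, of which 2 were positive, and 0.13 over 5 tested immune genes, of which 4 were positive. No gene of these 3 lists was called by edgeR or DESeq2. Of their genes 1, *Cdh5*, was higher at an unadjusted edgeR p-value under 0.05, beside 4.06% of all tested genes. The part of these cells in the members' levels was not tested.

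Melanocyte genes summed to 6.66, 10.2 and 12.9 CPM in Ctrl and 11.7, 12.9 and 13.7 CPM in TKO, led by *Mitf*, and DESeq2 called *Mlana* (log2 fold change of 3.13, SE 0.86, adjusted p-value of 0.0206 by DESeq2 and 0.360 by edgeR). Schwann cell and neuron genes, led by *Mbp*, summed to 48.1, 47.0 and 56.3 CPM in Ctrl and 57.6, 63.9 and 49.3 CPM in TKO. Basal keratinocyte genes summed to 24330, 24100 and 18110 CPM in Ctrl and 15030, 16830 and 19230 CPM in TKO, and DESeq2 called *Krt15* lower (log2 fold change of -1.18, SE 0.26, adjusted p-value of 0.00066 by DESeq2 and 0.185 by edgeR). Suprabasal genes, led by *Krt1*, summed to 18630, 18220 and 20100 CPM in Ctrl and 16290, 12320 and 13070 CPM in TKO. The sort markers *Epcam* and *Itga6* had log2 fold changes of 0.13 and 0.03 with overlapping groups.

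**Figure D4:**
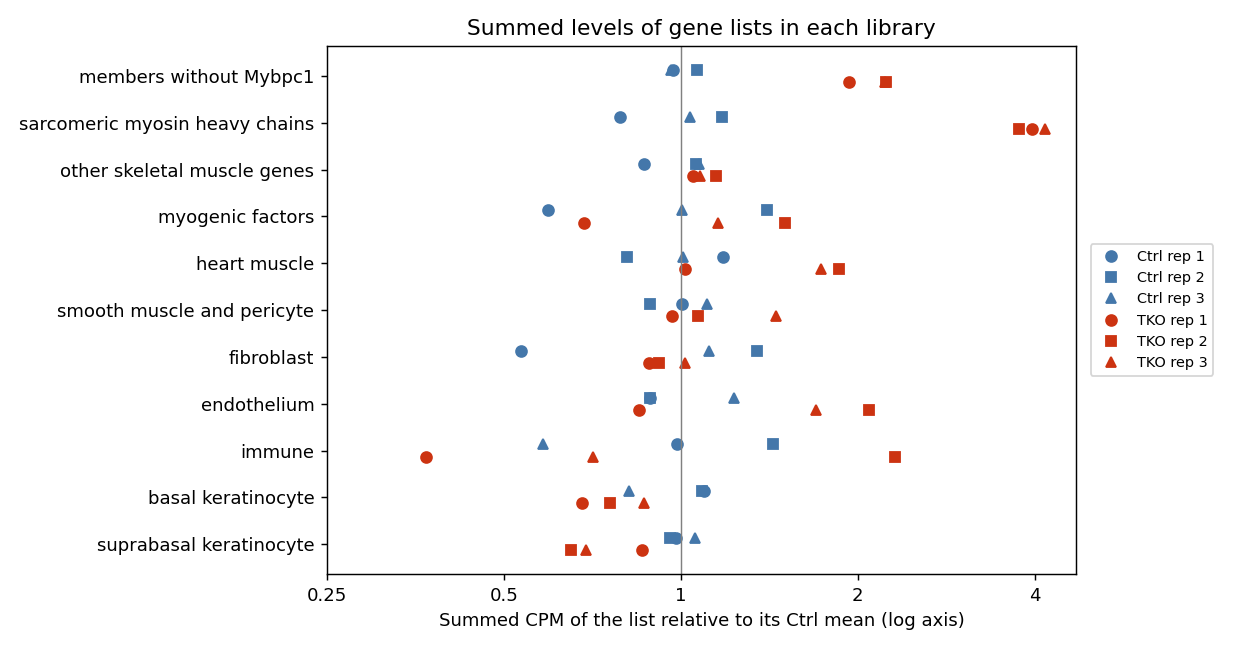
Summed CPM of each gene list in each library divided by the mean of the 3 Ctrl libraries (horizontal log axis), with Ctrl in blue, TKO in red and a symbol per replicate. The members without *Mybpc1* (27.2 to 30.2 CPM in Ctrl, 54.7 to 63.2 CPM in TKO) and the sarcomeric myosin heavy chains are right of all their Ctrl points in every TKO library, whereas myogenic factors, fibroblast, endothelial and immune genes overlap between groups.

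Because the counting program and its strand setting are not given in the sources used here, reads from genes on opposite strands may not have been told apart. In GENCODE vM39, 28 of the 45 members share exon bases with at least 1 other gene, in all 47 pairs on the opposite strand. The 17 members that share none include *Actn2*, *Tnni1*, *Myoz2* and *Casq2*. They summed to 5.79, 4.83 and 4.74 CPM in Ctrl and 7.31, 10.7 and 11.8 CPM in TKO, and the 9 of them that were tested had a median log2 fold change of 1.38. All TKO libraries were again above all Ctrl libraries in this sum, an alternative added after the data were seen.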

How the data were processed

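Epcam+α6+ cells were sorted from dorsal skin, RNA was depleted of rRNA and paired-end libraries were sequenced. The authors trimmed reads with fastp, aligned them with STAR and deposited a table of raw counts, 1 row per Ensembl gene and 1 column per library, unpooled and not normalized. The methods name GRCm39, whereas the submitters' processing notes name GRCm38. The table holds no coordinates, and the counting program, annotation and strand setting are not given in the sources used here. Symbols, positions and exon lengths come from GENCODE vM39 (GRCm39), which matched 51477 of 55536 genes and from 86.4% to 94.1% of each library's counts. Promoter windows come from RefSeq on GRCm38.p6.

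Counts were analysed with edgeR 4.0.16 and limma 3.58.1 in R 4.3.3. Genes were kept by filterByExpr (minimum count 10, minimum total 15), scaled by TMM and compared with glmQLFit (robust) and glmQLFTest, with group as the only term and Benjamini-Hochberg adjustment over all 20622 tested genes. Calls needed an adjusted p-value below 0.05 together with a log2 fold change beyond 1 in size. The biological coefficient of variation was 36.5%. A fold against a group at or under 3 counts per library was computed against that floor. Scripts were tested on simulated data.

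Groups, replicate numbers and genotypes came from the sample labels. Members, classes and gene lists were chosen with earlier results of these data known, so no list test was run. Genes named are members with non-overlapping groups, an unadjusted p-value under 0.05 or a DESeq2 call, the member of each class with most counts per kilobase, the tested members with extreme fold changes, the targeted genes, the most abundant and called genes of other lists and 12 defining markers. Other named genes were chosen after their values were seen. Of 7 suprabasal genes written, 6 matched.

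Whether equal replicate numbers pair libraries is not stated. In deviations of log2(CPM + 0.5) from group means, equal numbers correlated at 0.19, 0.19 and 0.27 and unequal ones between -0.24 and 0.02. The numbers may therefore pair the libraries, but the main edgeR fit and DESeq2 did not model a pairing. P-values given without mention of the block are thus unpaired. The replicate number was a block among the alternatives, in edgeR only. The others were DESeq2 1.42.0 on the same genes and in its default workflow, RLE size factors, no low-count filter, at least 10 counts in every library, sex as a factor, no robust estimation, no fold threshold, an adjusted p-value under 0.01 and each library left out.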

Additional observations from a re-analysis of the deposited data

How the results depend on the processing

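EdgeR called 0 members in every fit run except the one without a low-count filter, which called 2, and DESeq2 called 3 in both workflows. Other skeletal muscle genes had 1 call with each DESeq2 workflow and 2 without the filter. Over all genes the 27 calls became 214 and 227 with the DESeq2 workflows, 235 without the filter, 9 with at least 10 counts in every library, 11 at an adjusted p-value under 0.01, and from 7 (without Ctrl replicate 2) to 81 (without TKO replicate 3) with 1 library left out. With a block for the replicate number, 45 genes were called, 0 of them members, and 0 members were lower at an unadjusted p-value under 0.05 instead of 1. The block was run in edgeR only, where *Myh3* stayed called (adjusted p-value of 0.0315). Among the named genes, those called by DESeq2 alone had edgeR adjusted p-values from 0.0806 (*Jph2*) to 0.448 (*Mlana*) with the block. DESeq2 was not run with the block. With sex as a factor that count was also 0, and it was 0 or 1 with 1 library left out. With 1 library left out, members higher at an unadjusted p-value under 0.05 numbered from 6 (without TKO replicate 3) to 14 of 37 (without TKO replicate 1, beside 3.79% of all genes then tested). Those separated upwards in TKO from all Ctrl libraries, 10 with all libraries and 7 with at least 10 counts in every library (beside 6.35% and 6.24% of all tested genes), then numbered from 11 (without Ctrl replicate 1, beside 9.34%) to 19, being 16 of 39 without Ctrl replicate 2 (beside 10.5% of all genes then tested) and 19 of 37 without TKO replicate 1 (beside 11%). The members' median log2 fold change of 0.83 was 0.62 with at least 10 counts in every library, 1.38 for those sharing no exon bases, and from 0.74 to 1.14 with 1 library left out. Other skeletal muscle genes higher at an unadjusted p-value under 0.05 numbered 3 of 42 in the main fit, beside 4.06% of all tested genes. They were 1 of 26 with at least 10 counts in every library and from 1 to 6 with 1 library left out.

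Of 482 values for 35 named genes, 437 kept their sign and their side of an adjusted p-value of 0.05, taken here without the fold threshold, 26 newly passed it, 6 (all of *Myh3*) no longer passed and 13 changed sign. With 1 library left out, log2 fold changes ranged from -0.43 to 0.77 for *Pgam2*, from -1.27 to 1.25 for *Pax7*, from -0.0473 to 0.12 for *Itga6*, from -0.65 to 0.59 for *Acta2*, from -0.36 to 0.30 for *Col1a1* and from -0.59 to 0.13 for *Pdgfra*. With no low-count filter, *Itga6* was -0.0028 and *Col1a1* -0.0050, and with sex as a factor *Pax7* was -0.14. *Myh3* also missed the threshold with sex as a factor. The cause of these changes was not tested. With 3 libraries per group and many members under 1 CPM, differences smaller than the spread between libraries may have been missed. How small a difference could be detected among the members was not tested.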
